A study of Poecilia mexicana x Poecilia latipinna and Poecilia formosa with 28 samples.

Results

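A set of 171 genes, of 31997 in the count table, differed in opposite directions between 2 kinds of hybrid fish in liver and in ovary. Of these, 138 had higher levels in P. formosa liver and lower levels in P. formosa ovary than F1 hybrids did, and are called liver-higher genes here. The other 33 had lower levels in P. formosa liver and higher levels in P. formosa ovary, and are called ovary-higher genes. Both names give the organ in which P. formosa exceeded the hybrids, not the organ with the higher level. Genes were chosen on CPM, counts scaled to a common total for every library. A gene was kept if the CPM of P. formosa and hybrid fish did not overlap in liver or in ovary and the higher group mean was at least 1 CPM in each organ. The ratio of P. formosa to hybrid means, with 0.1 CPM added to each, also had to be at least 1.5 in one organ and at most 0.67 in the other. The number kept was below the cap of 300, so none was dropped.

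The P. formosa fish were females of 1 laboratory clone of Poecilia formosa, the Amazon molly, kept for about 70 generations. They were compared with female F1 hybrids from 1 brood of a Poecilia mexicana mother and a Poecilia latipinna father. All fish were 3 months old and untreated. Liver and brain libraries came from 4 P. formosa fish (numbers 3, 4, 11 and 12) and 6 hybrid fish (4, 10, 11, 12, 13 and 14). Ovary libraries came from the same P. formosa fish and from hybrids 4, 10, 12 and 13. Fish of a group are siblings, and a number shared between the genotypes names different animals. P-values therefore say nothing of the spread beyond siblings from this clone and this brood.

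The Amazon molly is an all-female species of hybrid origin whose eggs develop without taking up the sperm donor's genome, so a daughter inherits both ancestral genomes of its mother together. In female fish the liver makes yolk precursors under estrogen, and the ovary takes them up into growing oocytes, besides making its own maternal transcripts. The table identifies genes by number and pairs no number with a name, so single genes are given by number and no role is assigned to them. The libraries are of bulk tissue, in which fewer cells of a type and less RNA per cell cannot be told apart.

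Library totals were 40586409 to 46316691 counts in liver, 41249726 to 45987727 in ovary and 32460110 to 37706902 in brain. P. formosa livers had 13609 to 14639 genes at 1 CPM or more, against 12074 to 12946 in hybrid livers, with no overlap. In ovary the numbers were 18126 to 18546 in P. formosa and 18034 to 18496 in hybrids, and they overlapped. In P. formosa livers 29.2% to 32.8% of the counts fell on 10 genes, against 25.6% to 41.4% in hybrid livers, with hybrid 12 at the top and the next hybrid at 30.8%. P. formosa brains 4 and 11 held more counts of liver-enriched genes than the other brains, and brain results are given with and without them. Library numbers in the labels form 2 series, the first with all P. formosa and hybrids 4 and 10, the second with hybrids 11 to 14.

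Opposite differences were a minority among the genes that differed in both organs. In both organs, 13692 genes had a group mean of at least 1 CPM, and 1326 of these had no overlap between the genotypes in either. Past the same ratio limits, 276 genes were higher in P. formosa in both organs and 120 were lower in both. The 171 opposite genes were 30.2% of the 567 genes past the limits in both. Over all genes at 1 CPM or more, 19.8% were higher and 10.9% lower in P. formosa liver by these criteria, and 9.61% were higher and 7.27% lower in P. formosa ovary. The genes were chosen on these contrasts, so their values in liver and ovary are a description and no test was made of them. With TMM (trimmed mean of M values) scaling of each organ's totals, 126 liver-higher and 55 ovary-higher genes met the rule, and with DESeq2 size factors 124 and 58 did. Another 272 genes had opposite, non-overlapping differences but missed the ratio limit in at least 1 of the organs.

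**Figure D1:**
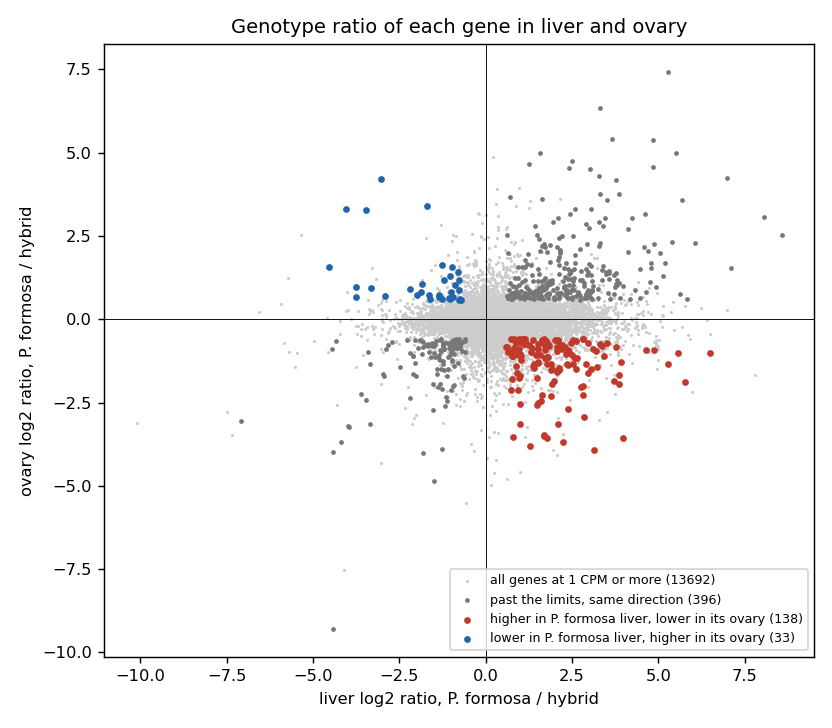
Log2 ratio of P. formosa to hybrid mean CPM in ovary (vertical axis) against that in liver (horizontal axis), 1 point per gene with at least 1 CPM in both organs. The 138 liver-higher genes lie at lower right and the 33 ovary-higher genes at upper left, the regions that the rule selects.

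The genes nearest to the limits had modest differences in 1 organ. The gene just inside the upper limit had 17.2 CPM in P. formosa ovary and 11.4 in hybrid ovary, a ratio of 1.503. The gene just outside it had 35.5 and 23.7 CPM in P. formosa and hybrid ovary, a ratio of 1.4999. At the lower limit, the gene just inside had 132 CPM in P. formosa ovary and 198 in hybrid ovary (0.668), and the gene just outside had 2.87 and 4.31 CPM (0.672).

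In liver, the median log2 ratio of the 138 liver-higher genes was 1.78, and single genes lay between 0.60 and 6.48. The difference was at least 2-fold for 110 of them and at least 4-fold for 57. In ovary the same genes had a median log2 ratio of -1.08, between -3.92 and -0.58. There, 77 were at least 2-fold and 22 at least 4-fold lower in P. formosa. The typical gene was scarce in hybrid liver: the median over genes of the group means was 4.74 CPM in livers of P. formosa and 1.23 CPM in those of hybrids. It was 6.17 CPM in P. formosa ovary and 13.4 CPM in hybrid ovary. In hybrid liver 62 of the 138 genes had a mean under 1 CPM, and in P. formosa ovary 18 did. The rule asks for 1 CPM in the higher group only, so low levels in the other group were made likelier by the choice. For the genes higher (276) or lower (120) in P. formosa in both organs, the median hybrid liver mean was 1.70 CPM. Of these, 150 were under 1 CPM there. Over all 13692 genes at 1 CPM in both organs, the median was 7.16 CPM, and 1545 were under 1 CPM.

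Summed over the 138 genes, P. formosa livers had 2226 ± 387 CPM (SD, n = 4), with single fish at 1799 to 2737. Hybrid livers had 875 ± 150 CPM (n = 6), at 613 to 1023. In ovary the sum was 2421 ± 92.8 CPM in P. formosa and 5326 ± 564 CPM in hybrids (SD, n = 4 each), with ranges of 2292 to 2493 and 4846 to 6042. The summed levels did not overlap in either organ, which follows from how the genes were chosen.

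Gene 103155747 had the largest liver ratio among the liver-higher genes. In liver it stood at 17.4, 18.1, 22.0 and 20.1 CPM in P. formosa fish 3, 4, 11 and 12. In hybrid livers the lowest value was 0, the median 0.129 and the highest 0.191 CPM, from 31 counts over the 6 libraries. All P. formosa livers were thus far above all hybrid livers, and the log2 ratio was 6.48. In ovary its values were 6.17, 5.83, 7.21 and 5.91 CPM in P. formosa fish 3, 4, 11 and 12, and 13.8, 13.6, 9.99 and 13.2 CPM in hybrids 4, 10, 12 and 13. Every P. formosa ovary was below every hybrid ovary, with means of 6.28 ± 0.638 CPM in P. formosa and 12.7 ± 1.80 CPM in hybrids (SD, n = 4 each). So the transcript was almost missing from hybrid liver while hybrid ovary held more of it than P. formosa ovary.

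Gene 103154117 was the liver-higher gene with the next largest gap between its liver and ovary ratios, among those at 5 CPM or more in a group of each organ. P. formosa ovaries had 6.42, 7.67, 6.98 and 4.61 CPM in fish 3, 4, 11 and 12, and hybrid ovaries had 54.8, 58.4, 38.5 and 47.5 CPM in fish 4, 10, 12 and 13. The groups were far apart, with a log2 ratio of -2.94. In liver, P. formosa fish 3, 4, 11 and 12 had 10.1, 4.73, 20.8 and 17.1 CPM, and the hybrids had a lowest value of 1.08, a median of 1.74 and a highest of 2.28 CPM. The groups did not overlap in liver either (log2 ratio 2.85), but P. formosa fish 4 was well below its siblings.

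The most abundant liver-higher gene in P. formosa liver stood at 438 ± 38.8 CPM there (SD, n = 4) and at 289 ± 64.5 CPM in hybrid liver (n = 6). Its ovary levels were 42.5 ± 5.91 CPM in P. formosa and 75.2 ± 12.2 CPM in hybrids (n = 4 each). The one most abundant in hybrid ovary had 238 ± 13.7 CPM in P. formosa ovary and 629 ± 44.6 CPM in hybrid ovary, while in liver it had 4.00 ± 0.651 CPM (n = 4) and 1.49 ± 0.926 CPM (n = 6). With a minimum of 5 CPM in both organs, 55 liver-higher genes remained.

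**Figure D2:**
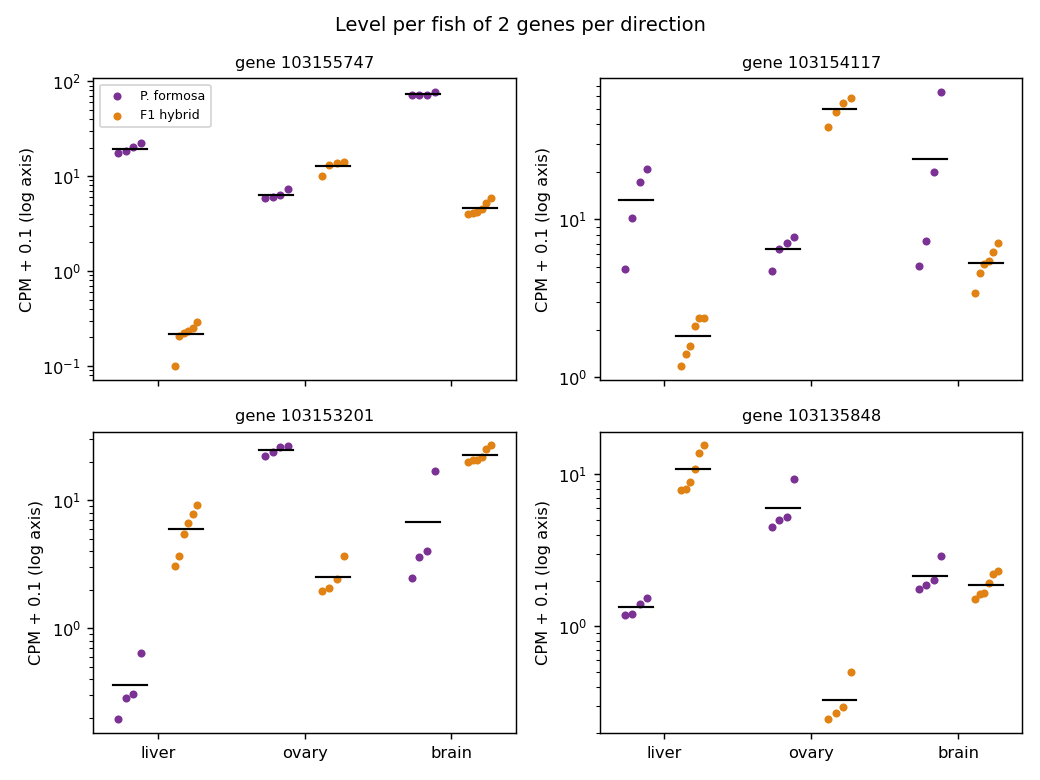
CPM plus 0.1 on a log axis for 4 genes, 1 panel each, by organ with P. formosa left of hybrids; each point is a fish and each line a group mean. Genes 103155747 and 103154117 lie above the hybrids in P. formosa liver and below them in P. formosa ovary, and genes 103153201 and 103135848 lie the other way round.

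The 33 ovary-higher genes had a median log2 ratio of -1.35 in liver, between -4.54 and -0.72, and 24 were at least 2-fold lower in P. formosa. In ovary the median was 0.88, between 0.59 and 4.21, and 13 were at least 2-fold higher. Median levels over the genes were 7.25 CPM in livers of P. formosa and 14.7 CPM in those of hybrids, and 19.1 CPM in P. formosa ovary and 11.3 CPM in hybrid ovary. In liver their sum was 2073 ± 560 CPM for P. formosa (SD, n = 4) and 7077 ± 1607 CPM for hybrids (n = 6). In ovary it was 1327 ± 46.1 CPM in P. formosa and 717 ± 19.1 CPM in hybrids (n = 4 each).

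A single gene made up a large part of the liver sum. It had 852, 1362, 472 and 424 CPM in livers of P. formosa fish 3, 4, 11 and 12, and the hybrid livers had a lowest value of 1514, a median of 3260 and a highest of 4218 CPM. In ovary the same gene had 28.2 ± 8.31 CPM in P. formosa and 17.0 ± 4.77 CPM in hybrids (SD, n = 4 each). P. formosa liver 4 came near the lowest hybrid, without overlap.

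Gene 103153201 was nearly absent from P. formosa liver. Its liver values were 0.208, 0.185, 0.0945 and 0.545 CPM in P. formosa fish 3, 4, 11 and 12, and 2.95 at the lowest, 5.93 at the median and 9.07 CPM at the highest in hybrids. In ovary it had 22.1, 23.9, 26.8 and 26.3 CPM in P. formosa fish 3, 4, 11 and 12, and 1.85, 1.95, 3.56 and 2.34 CPM in hybrids 4, 10, 12 and 13. P. formosa was lower in every liver and higher in every ovary, with log2 ratios of -4.06 and 3.30.

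Gene 103135848 was nearly absent from hybrid ovary, where 40 counts over the 4 libraries gave 0.196, 0.399, 0.170 and 0.145 CPM in fish 4, 10, 12 and 13. P. formosa ovaries had 4.91, 5.18, 9.30 and 4.42 CPM in fish 3, 4, 11 and 12, a log2 ratio of 4.21. P. formosa livers had 1.43, 1.11, 1.09 and 1.30 CPM, and hybrid livers had 7.84 at the lowest, 9.78 at the median and 15.4 CPM at the highest (log2 ratio -3.03). P. formosa fish 11 was high in ovary but not in liver.

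The organ in which a gene was most abundant often differed between the genotypes. For levels across organs, library totals were scaled with TMM over all 28 libraries, because a few abundant genes fill much of a liver library. Of the liver-higher genes, liver held the highest mean for 72 in P. formosa and for 22 in hybrids, and ovary for 18 in P. formosa and for 68 in hybrids. Brain held the highest mean for 48 in each genotype. The median log2 ratio of liver to ovary was 1.94 in P. formosa and -1.81 in hybrids. For 34 genes, liver exceeded ovary without overlap in P. formosa and ovary exceeded liver without overlap in hybrids. With plain CPM this number was 21, liver held the highest mean for 26 in P. formosa and for 7 in hybrids, brain for 89 in P. formosa and for 55 in hybrids, and the medians were 0.30 in P. formosa and -3.40 in hybrids.

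Among the ovary-higher genes, the median log2 ratio of liver to ovary was -0.28 in P. formosa and 2.66 in hybrids, and the order switched without overlap for 6. With plain CPM the medians were -1.85 in P. formosa and 0.84 in hybrids. With TMM scaling, liver held the highest mean for 12 of the 33 in P. formosa and for 22 in hybrids. Ovary did for 11 in P. formosa and for 2 in hybrids. With plain CPM, liver did for 8 in P. formosa and 16 in hybrids, and ovary for 15 in P. formosa and 7 in hybrids. Since the rule asks for opposite differences, the direction of the shift in liver over ovary was fixed by the choice for every gene. A switch of the organ order was also made likelier by it. Over all 13692 genes at 1 CPM in both organs, 159 switched to liver over ovary in P. formosa and 173 switched the other way with TMM scaling. With plain CPM, 114 switched the first way and 39 the other. Of the genes higher (276) or lower (120) in P. formosa in both organs, 6 switched the first way and 2 the other with TMM scaling, and 5 and 1 with plain CPM. The choice of those genes does not call for a shift in liver over ovary, so their counts are not a like comparison. No test was made of these counts.

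**Figure D3:**
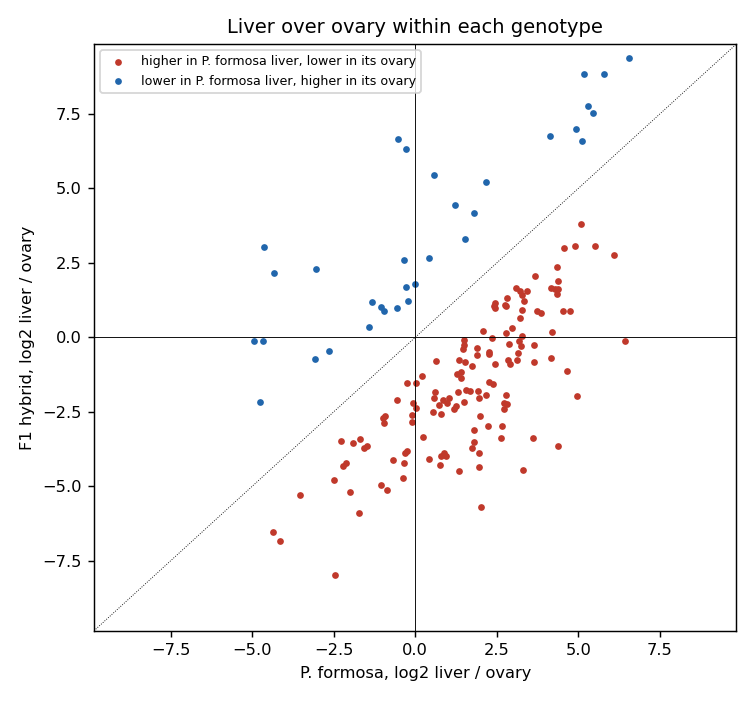
Log2 ratio of liver to ovary mean level (TMM-scaled) in P. formosa on the horizontal axis against hybrids on the vertical axis, 1 point per gene, with a dotted line of equality. Medians of the liver-higher genes are 1.94 in P. formosa and -1.81 in hybrids, and those of the ovary-higher genes are -0.28 and 2.66. The rule fixes the direction of these shifts.

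Most genes of the set were enriched in no single organ, and the same held for most of the 13692 genes at 1 CPM in both organs. A gene was called enriched in an organ with at least 5 CPM there and at least 4 times the level of either other organ. It was called broad when it had at least 5 CPM in all organs and under 4-fold differences. Each gene had 1 class for P. formosa and hybrids together. The rule chose the set on liver and ovary levels of both, so the choice can shape the shares of these classes in the set. Among the liver-higher genes 12 were liver-enriched (8.70%), 13 ovary-enriched (9.42%), 16 brain-enriched and 23 broad (16.7%), and 74 (53.6%) fitted none of these. Over all 13692 genes at 1 CPM in both organs, 36.9% were broad and 39.6% fitted none. The brain-enriched share of the 13692 is what these shares and the liver-enriched (9.09%) and ovary-enriched (8.69%) shares leave. Of the ovary-higher genes 11 (33.3%) were liver-enriched and none was ovary-enriched, where 9.09% and 8.69% of the 13692 genes were. No test was made of these shares.

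With the 171 genes left out, the sum of brain-enriched genes also stood higher in P. formosa liver. The summed level of 2766 brain-enriched genes was 8299 to 11776 CPM in P. formosa livers and 5769 to 7300 CPM in hybrid livers, with no overlap. The sum of 2116 ovary-enriched genes was 10054 to 13689 CPM in P. formosa livers and 9044 to 12085 CPM in hybrid livers, and it overlapped. In ovary the sum of 1614 liver-enriched genes was 32153 to 42760 CPM in P. formosa and 35594 to 41974 CPM in hybrids. The part of these levels in the liver values of the 138 genes was not tested.

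Within the set, P. formosa siblings differed from each other more in liver and brain than in ovary. The rule can limit the spread within a group in liver and ovary but not in brain, and no value over all genes is given. For the liver-higher genes the median ratio of the highest to the lowest sibling was 1.95 in P. formosa liver, 2.19 in P. formosa brain and 1.38 in P. formosa ovary. It was 2.19 in hybrid liver, 1.53 in hybrid brain and 1.51 in hybrid ovary. P. formosa livers 11 and 12 were both above livers 3 and 4 for 75 of the 138 genes (54.3%), where this held for 38.3% of the 13692 genes. Livers 3 and 4 were above livers 11 and 12 for 13. In brain, fish 4 and 11 were both above fish 3 and 12 for 83 genes (60.1%, against 33.5% of the 13692), and the reverse held for 25. Both patterns occurred together in 53 of the 138 genes and in 2292 of the 13692. Of the genes higher (276) or lower (120) in P. formosa in both organs, 46.5% had the liver pattern and 38.9% the brain pattern. Both patterns occurred together in 96 of those genes. No test was made of these shares. Among the 33 ovary-higher genes the liver pattern held for 3 and the brain pattern for 7.

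The level of each class per library was taken as the median over its genes of the log2 level relative to the mean of the 2 genotypes in that organ. For the liver-higher genes P. formosa livers 3, 4, 11 and 12 were at 0.36, 0.13, 0.96 and 0.67. Hybrid livers lay between -1.73 (fish 12) and -1.06. In ovary the P. formosa values were -0.85, -0.58, -0.59 and -0.69, and those of hybrids 4, 10, 12 and 13 were 0.29, 0.34, 0.54 and 0.52. Fish 11 and 12 stood highest among the P. formosa livers but not apart in ovary.

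**Figure D4:**
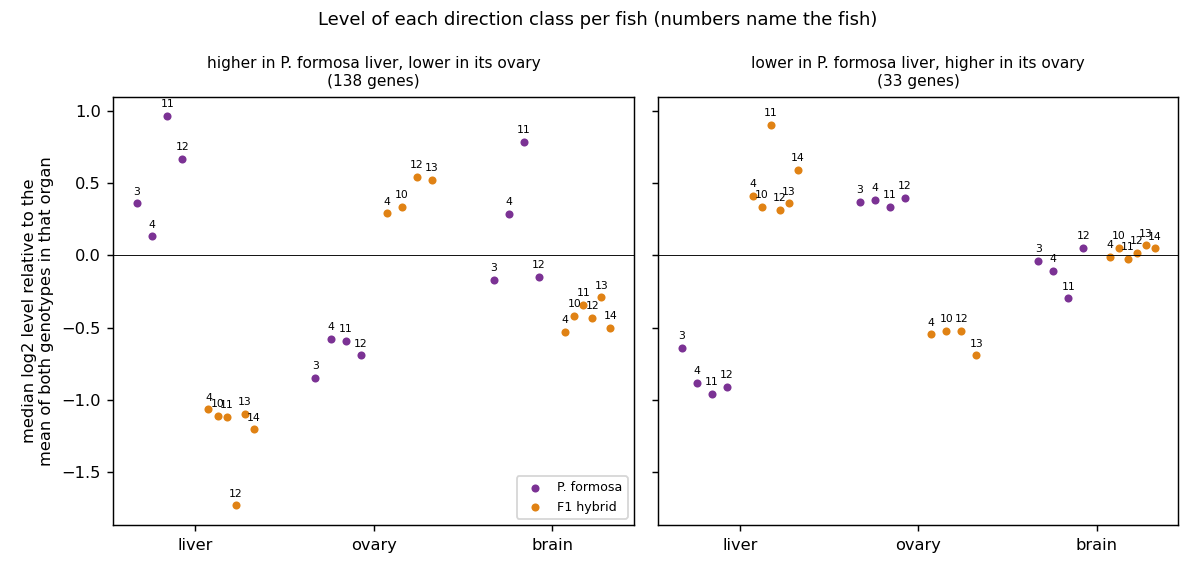
Median log2 level of the liver-higher and ovary-higher genes in each fish relative to the mean of the 2 genotypes in that organ, with P. formosa left of hybrids. P. formosa fish 11 and 12 are highest in liver and fish 4 and 11 highest in brain for the liver-higher genes, and hybrid 12 is lowest in liver at -1.73.

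With only hybrids 4 and 10, which share the library series of the P. formosa fish, the median log2 ratios of the liver-higher genes were 1.65 in liver and -0.87 in ovary. Of the 138 genes, 104 were past the ratio limits in both organs with these hybrids. For the ovary-higher genes the medians were -1.28 and 0.93, and 21 of 33 were past the limits in both. With these hybrids, 6703 of the 13692 genes at 1 CPM in both organs were past the limits in liver and 1953 in ovary, in either direction. Of the liver-higher genes 128 were in liver and 110 in ovary. The rule used hybrids 4 and 10 too, so the directions were fixed by the choice, and these values are no test of the library series.

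Brain played no part in the choice of the genes, so the genotype difference there was tested, with edgeR's quasi-likelihood test over 22611 genes and Benjamini-Hochberg adjustment. The brains come from the same fish as the livers and ovaries. In brain more of the liver-higher genes were called higher in P. formosa than were called lower. Of the 135 that passed the filter on low counts, 47 (34.8%) were higher at an adjusted p under 0.05 and 2 were lower. Over all genes tested, 7.79% were higher and 4.27% lower. The median log2 fold change was 0.61 for the 135 genes and 0.03 for all genes, and 108 of the 135 had a positive one. The 47 called genes had log2 fold changes from 0.43 to 5.89.

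Of the 132 liver-higher genes at 1 CPM in brain, 31 were above all hybrid brains in every P. formosa brain and 2 were below (6.87% and 4.95% of all genes at 1 CPM). The summed level of the 138 genes in brain was 5600 ± 886 CPM for P. formosa (SD, n = 4) and 4373 ± 122 CPM for hybrids (n = 6). Single fish were at 4877 to 6809 and at 4157 to 4490 CPM.

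Most of these brain calls were lost without P. formosa brains 4 and 11, a change that also leaves fewer libraries. Then 14 of the liver-higher genes were higher (10.4%) and 1 was lower, with 2.28% and 1.64% over all genes. The median log2 fold change was 0.14 for the liver-higher genes and -0.01 for all genes. All 14 were among the 47. Brains 4 and 11 also had more counts of liver-enriched genes: the summed level of the 1614 genes outside the set was 53833 and 72517 CPM in P. formosa brains 4 and 11, 42251 and 41106 CPM in P. formosa brains 3 and 12, and 37684 to 43532 CPM in hybrid brains. The sum of 2116 ovary-enriched genes was 10848 and 14413 CPM in P. formosa brains 4 and 11. It was 10169 and 10488 CPM in P. formosa brains 3 and 12, and 9907 to 10312 CPM in hybrid brains. Of the 47 genes, 7 were liver-enriched, and the part of these differences in the calls was not tested. Leaving out a single library gave 17 to 62 higher genes, with 17 to 26 when P. formosa brain 4 or 11 or any 1 hybrid brain was left out. With the library series as a term, 10 liver-higher genes were higher (7.41%, with 1.49% over all genes), and with hybrids of the first series only, 6 were (0.699% over all genes). Every P. formosa library is of the first series, so the genotype difference in both fits rests on hybrids 4 and 10, and they are not separate checks. With fish numbers as a block, which pairs different animals, 5 liver-higher genes were higher and 0 lower (0.402% and 0.177% over all genes). In that fit 53 liver-higher genes had an unadjusted p under 0.05 (edgeR), given without the share over all genes.

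Other genes past the ratio limits are given for comparison. Of 2446 genes tested in brain that were past the limits as higher in P. formosa liver and were outside the set, 22.2% were higher in P. formosa brain and 1.14% lower (median log2 fold change 0.29). Without P. formosa brains 4 and 11, 5.68% were higher and the median was 0.08. Of 592 genes past the limits as lower in P. formosa ovary, 4.05% were higher and 15.2% lower (median -0.06). Of 271 tested genes that were higher in P. formosa in both organs, 108 (39.9%) were higher in brain and 2 lower (median 0.73). These shares were not tested against each other.

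**Figure D5:**
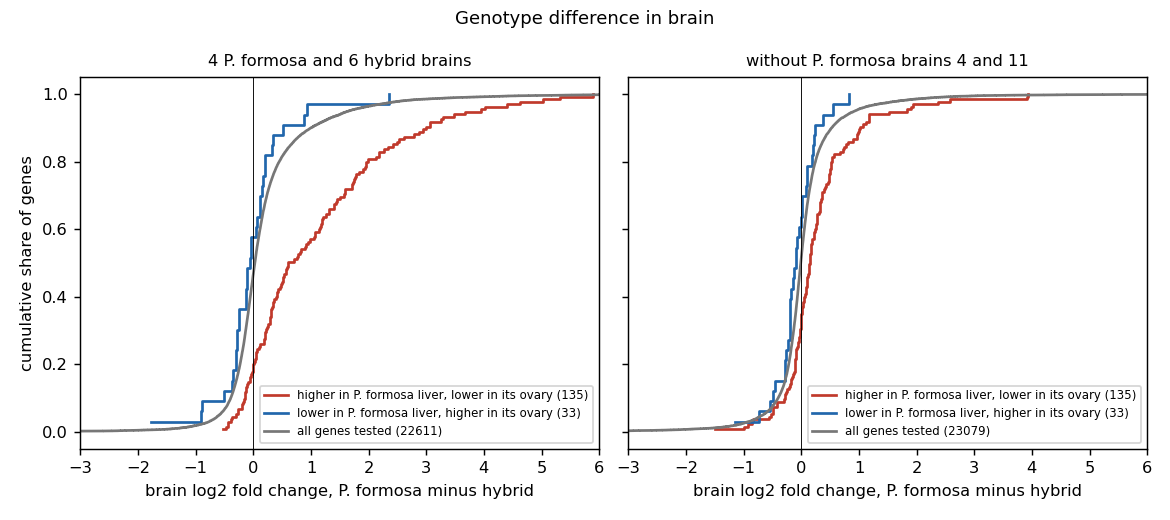
Cumulative share of genes (vertical axis) by edgeR log2 fold change in brain, P. formosa minus hybrid (horizontal axis, shown from -3 to 6), for the liver-higher genes, the ovary-higher genes and all genes tested, with all brains at left and without P. formosa brains 4 and 11 at right. The curve of the liver-higher genes lies to the right of that of all genes at left (medians 0.61 and 0.03) and nearer to it at right (0.14 and -0.01).

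Gene 103155747 was the clearest case in brain. P. formosa brains had 72.1, 76.7, 71.2 and 71.3 CPM in fish 3, 4, 11 and 12, and hybrid brains had 3.91 at the lowest, 4.25 at the median and 5.78 CPM at the highest. All P. formosa values were over 10 times the highest hybrid value, with a log2 fold change of 4.01 ± 0.12 (SE; adjusted p = 1.2e-08, edgeR). The call held under all 18 alternative settings of the brain test, with log2 fold changes of 3.94 to 4.16. P. formosa thus had more of this transcript in liver and brain and less in ovary.

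The genes with the largest log2 fold changes in brain were uneven among P. formosa siblings. Gene 103146088, a liver-higher gene, had 2.53, 32.5, 68.6 and 2.46 CPM in brains of P. formosa fish 3, 4, 11 and 12, and hybrids had 0.226 at the lowest, 0.392 at the median and 1.14 CPM at the highest. Brains 4 and 11 were far above brains 3 and 12, yet all were above the hybrids (log2 fold change 5.89 ± 1.01, SE; adjusted p = 0.0059, edgeR). In liver the same gene had 0.715, 0.950, 15.6 and 13.2 CPM in P. formosa fish 3, 4, 11 and 12, and at most 0.119 CPM in hybrids. Among the P. formosa fish, 11 was high in both organs, 4 in brain and 12 in liver.

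Gene 103137093 had 0.653, 14.5, 165 and 2.38 CPM in P. formosa brains 3, 4, 11 and 12, and 1.12 to 1.44 CPM in hybrid brains with a median of 1.18. P. formosa brain 3 was below every hybrid, so the groups overlapped. Its log2 fold change was 5.32 ± 1.25 (SE; adjusted p = 0.0253, edgeR), and 0.27 (adjusted p = 0.784) without P. formosa brains 4 and 11. Gene 103154117 had 7.18, 19.9, 63.8 and 4.96 CPM in P. formosa brains 3, 4, 11 and 12, against 3.32 at the lowest, 5.23 at the median and 6.96 CPM at the highest in hybrids. Its log2 fold change was 2.27 ± 0.63 (SE; adjusted p = 0.0434), and 0.19 (adjusted p = 0.772) without the same brains.

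The 33 ovary-higher genes were all tested in brain: 1 was higher and 3 were lower in P. formosa (edgeR), with a median log2 fold change of -0.05. The shares over all genes tested were 7.79% higher and 4.27% lower. With all brains 11 had an unadjusted p under 0.05 (edgeR). Counts at an unadjusted p are given without the share over all genes, so they cannot be judged against it. Without P. formosa brains 4 and 11 none was higher and 3 were lower, with 6 at an unadjusted p under 0.05 (edgeR). In that fit 2.28% of all genes were called higher and 1.64% lower. Gene 103138400 had 5.41, 3.80, 5.25 and 6.82 CPM in P. formosa brains 3, 4, 11 and 12, and 8.03 at the lowest, 9.61 at the median and 12.0 CPM at the highest in hybrids. Every P. formosa brain was below every hybrid brain (log2 fold change -0.89 ± 0.17, SE; adjusted p = 0.0089, edgeR). In liver it had 0.123 ± 0.116 CPM in P. formosa (SD, n = 4) and 2.88 ± 1.51 CPM in hybrids (n = 6). In ovary it had 18.0 ± 2.63 CPM in P. formosa and 11.3 ± 2.52 CPM in hybrids (n = 4 each).

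Gene 103153201 had 3.94, 3.48, 2.39 and 17.0 CPM in P. formosa brains 3, 4, 11 and 12, and 19.9 at the lowest, 21.1 at the median and 26.8 CPM at the highest in hybrids. P. formosa brain 12 approached the hybrids and the other 3 were far below them. Its log2 fold change was -1.77 ± 0.49 (SE; adjusted p = 0.0421, edgeR), and the call was lost in 13 of the 18 alternative settings. Gene 103135848 had 2.80, 1.67, 1.77 and 1.92 CPM in P. formosa brains and 1.42 at the lowest, 1.69 at the median and 2.20 CPM at the highest in hybrid brains. These groups overlapped, and its log2 fold change of 0.20 ± 0.21 (SE) did not pass the test (adjusted p = 0.540, edgeR). It was below 0 in 3 of the 18 alternative settings.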

How the data were processed

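Messenger RNA of liver, ovary and brain was sequenced from total RNA with integrity numbers above 8, with a TruSeq protocol, per the labels. The authors deposited raw read counts per gene in 1 table of 31997 genes and 28 libraries, and the submitters' processing notes name TopHat2 and featureCounts. Not given in the sources used here are versions, settings, genome build, annotation and strand handling. Reads of F1 hybrids carry alleles of 2 species, and those of P. formosa come from 2 ancestral genomes. Both can be taken up unequally by 1 reference. Counts of near-identical or overlapping genes are uncertain.

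The genes and lists were chosen with earlier results of these data known. CPM used column totals, with 0 per-sample columns unused. Levels across organs used TMM factors over all 28 libraries. Brain was tested with edgeR 4.0.16 in R 4.3.3 (filterByExpr, TMM, robust quasi-likelihood test without a block or series term, Benjamini-Hochberg threshold 0.05). On simulated counts the test recovered 80.4% of 2-fold and 93.9% of 4-fold changes, with 10 false calls. The simulation took the spread between fish from hybrid brains alone, so it does not cover the unevenness among P. formosa brains. Fold changes are P. formosa minus hybrid. DESeq2 1.42.0 was an alternative. The table pairs no gene with a name, so the lists of pathways and cell type markers could not be run. Single genes were named as the 2 per class, in place of 10, with the largest difference between liver and ovary log2 ratios at 5 CPM or more in the higher group of both organs, and the 2 per direction, in place of 5, with the largest called brain fold change. Genes at the limits and the most abundant genes of each class are given without a number, the abundant ones chosen after their values were seen. No pair of libraries of a group was alike within sampling noise (lowest chi-square per degree of freedom 12.7). Fish numbers shared between genotypes were no pairing: deviations from group means correlated at 0.17, -0.09 and -0.01 in brain. The labels do not call the library series a batch. Totals of 32460110 to 46316691 counts leave little counting error for genes above 1 CPM, though duplicate reads were not marked by molecular identifiers, so counting error is a lower limit.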

Additional observations from a re-analysis of the deposited data

Results flagged for a closer look

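In 54 sets of values, each from the 4 or 6 fish of a genotype in 1 organ, single values were compared with the gap to their neighbours, and chance alone sets about 1 in 20 such sets apart. Fish 4 was the highest P. formosa brain for gene 103155747, at 76.7 CPM. Fish 12 was far above the other P. formosa brains for gene 103153201, at 17.0 CPM, and fish 11 for gene 103137093, at 165 CPM. Fish 11 was the highest P. formosa ovary for gene 103135848, at 9.30 CPM, and hybrid 13 the highest hybrid brain for gene 103146088, at 1.14 CPM. For the liver-higher genes as a class, hybrid liver 12 was lowest, at a median log2 relative level of -1.73. For the ovary-higher genes, hybrid ovary 13 was lowest, at -0.69.

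The difference between the liver and ovary log2 ratios was 7.48 for gene 103155747, 5.79 for gene 103154117, -7.36 for gene 103153201 and -7.23 for gene 103135848. The genotypes did not overlap in either organ, and their order in ovary was opposite to that in liver. The genes were chosen for this, and the difference was not tested.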

How the results depend on the processing

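Scaling the totals of each organ with TMM gave 181 opposite genes (126 liver-higher and 55 ovary-higher), and DESeq2 size factors gave 182 (124 and 58), with 149 and 146 of the 171 shared. These scalings moved the median liver log2 ratio of all genes by -0.18 and -0.19. A minimum of 5 CPM left 76 genes (55 and 21), ratio limits of 2 and 0.5 left 70 (61 and 9), and no minimum gave 251 (206 and 45). Leaving out each fish in turn gave 174 to 253 genes, with 140 to 219 liver-higher (219 without P. formosa 4) and 29 to 51 ovary-higher (51 without hybrid 10). Fewer fish make a lack of overlap easier to reach. The organ order switched for 34 liver-higher genes with TMM and for 21 with plain CPM, an alternative added after seeing the data.

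In brain, edgeR called 2727 genes, and 4687 were called by DESeq2, 617 with the series term, 282 with first-series hybrids only, 905 without P. formosa brains 4 and 11 (added after seeing the data) and 1246 to 3620 with 1 library left out. Liver-higher genes called higher numbered 47, and 58 by DESeq2 (46 shared), 10 with the series term, 6 with first-series hybrids, 14 without brains 4 and 11, and 17 to 62 with 1 library left out. They were 22 without P. formosa brain 4, 26 without 11, and 26, 25, 25, 17, 25 and 21 without hybrids 4, 10, 11, 12, 13 and 14. Over all genes tested with all brains, edgeR called 7.79% higher and 4.27% lower, and DESeq2 called 11.4% higher and 6.82% lower. Ovary-higher genes called in brain numbered 4, and 7 by DESeq2, 1 to 5 with 1 library left out, and 0 by edgeR with the series term or first-series hybrids, with 5 and 3 at an unadjusted p under 0.05. The cause of these differences was not tested. Counts at an unadjusted p are given here without the share over all genes. The shared fish numbers name different animals. With them as a replicate block edgeR called 131 genes, 5 liver-higher genes and 0 ovary-higher genes (11 at an unadjusted p under 0.05). Gene 103135848, not called in brain in any setting, had a log2 fold change of 0.20 that turned to -0.088 with the series term, -0.088 with first-series hybrids and -0.041 with the replicate block. The other named genes kept their direction in all 18 settings. Calls were lost in 3 of 18 settings for genes 103146088 and 103138400, 11 for 103137093, 13 for 103154117 and 103153201, and 0 for 103155747. Every P. formosa library is of the first series, so second-series hybrids differ from them in genotype and series together. The series term and the first-series fit thus both compare P. formosa with hybrids 4 and 10.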
